A study of Rattus norvegicus with 10 samples.

Results

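The genes described here encode the mTOR protein kinase, partners and regulators of its complexes, and 2 of its substrates, as measured in rat testis. The members are a list of 10 symbols (Mtor, Rptor, Rictor, Mlst8, Deptor, Tsc1, Tsc2, Rheb, Rps6kb1 and Eif4ebp1), picked by symbol and not by their values. Of these, 8 were found in a table of 94827 loci, of which 1 locus was taken for each symbol, the one with the highest mean level. Rictor and Deptor were not matched by symbol or synonym and are not analysed here. The testes came from male Wistar rats at postnatal day 120. The BDE-47 group was born to mothers fed 0.2 mg/kg of BDE-47, a tetrabrominated diphenyl ether once used in flame retardants, each day from pregnancy day 8 to postpartum day 21, and the vehicle group to mothers fed only the corn oil that carried it. The mothers were the animals dosed, so the offspring were exposed through them, and the labels do not say which offspring were littermates. Each group has 5 libraries of poly(A) RNA, but the deposited table holds 1 value per group and locus. No spread between animals can be given for any value here, no difference was tested, and depth is unknown.

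The mTOR kinase works in a pair of complexes. In mTORC1 it is joined by raptor, which brings substrates to the kinase, and in mTORC2 by rictor, while mLST8 sits in both complexes and DEPTOR binds and restrains them. The small GTPase RHEB switches mTORC1 on at the lysosome, and the TSC1-TSC2 complex keeps RHEB in its inactive form. Active mTORC1 phosphorylates the S6 kinase and the translation repressor 4E-BP1, which promotes protein synthesis, and it holds autophagy back. In the testis the pathway is known for its part in the maintenance and differentiation of spermatogonia and in the junctions between Sertoli cells. Much of its control acts on proteins by phosphorylation, which RNA levels do not show.

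Levels are given in FPKM, which divides the fragments of a gene by the length of its transcript and by the size of the library, so levels of genes of different length can be compared. A difference is log2(FPKM + 1) in BDE-47 less the same in vehicle, on a scale that understates the differences of low genes. A gene is called higher or lower if it differs by at least 2-fold on that scale, a rule of size and not a test. By this rule 2 of the 8 members, Rheb and Eif4ebp1, were higher in the BDE-47 column and none was lower. The 2 members are 25% of the members found, against 30.1% of the 11567 gene names with a mean of at least 1 FPKM, and 3.60% of those names were lower. The share of higher members is thus close to that of all names. The median difference of the members was 0.40 and that of all names 0.45, with 4 members above the median of all names and 4 below it. Both depend on a locus that merges Mlst8 with Pgp. With the locus that names only Mlst8 the member median was 0.61, and Mlst8 (0.59) was then above the median of all names. The direction of every value rests on the column names. Titles of the libraries labelled BDE-47 hold a C and those labelled vehicle an X, and which library went into which column is not shown by the table.

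**Figure D1:**
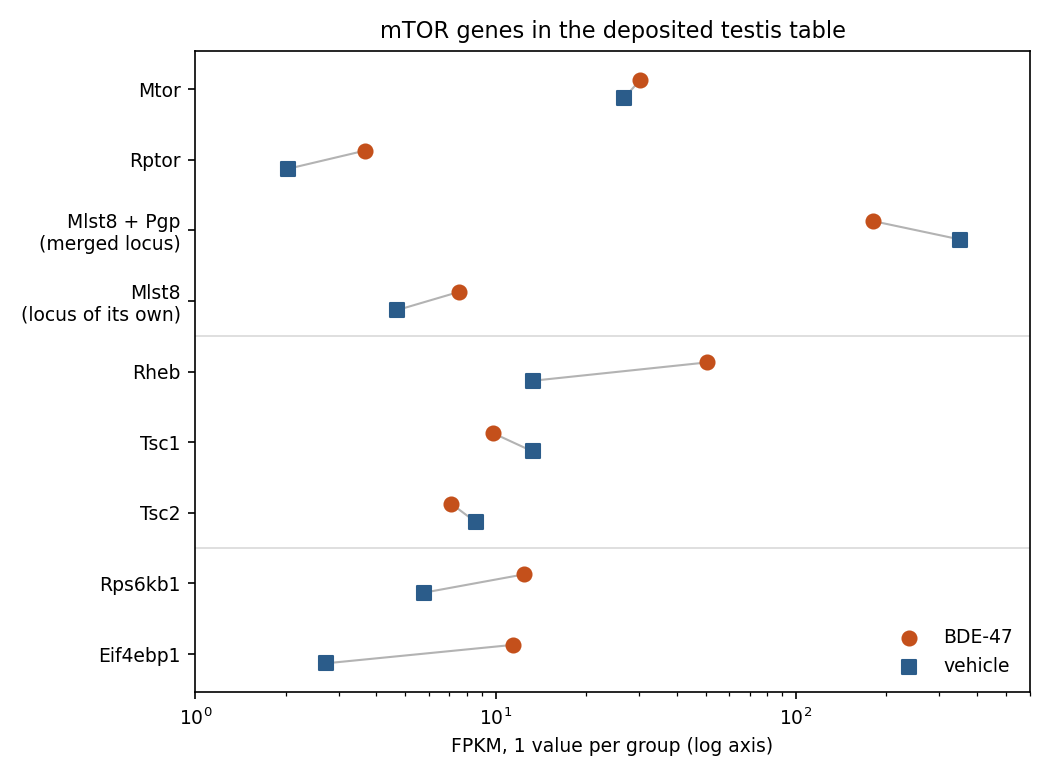
FPKM of each mTOR gene on a log axis, 1 value per group, with BDE-47 as circles above vehicle as squares, grouped from top to bottom into the kinase and its partners, RHEB with its inhibitors, and the effectors. Rheb (50.6 against 13.3 FPKM) and Eif4ebp1 (11.4 against 2.73 FPKM) are the members furthest to the right of their vehicle values, and the locus that merges Mlst8 with Pgp lies far above the locus of Mlst8 alone.

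Mtor, the kinase itself, was at 30.3 FPKM in the BDE-47 column and 26.7 FPKM in the vehicle column, a difference of 0.17. It was a fairly abundant transcript, above 70.4% of all names compared in the BDE-47 column and above 72.8% in the vehicle column. The difference lay 0.28 below the median of all names, and its sign turned under each of the 4 other scalings tried, with values of -0.59 to -0.017. Mtor lies on chromosome 5:168920418-169030570 of build rn5, and no other locus of the table overlaps it.

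Rptor, which encodes raptor, was the lowest member in both columns, with 3.68 FPKM in the BDE-47 column and 2.03 FPKM in the vehicle column. The difference of 0.63 was within 2-fold. Its rank among all names was lower in the BDE-47 column, above 16.1% of names there and above 19.7% in the vehicle column, although its value was higher. The level of Rptor was 0.122 times that of Mtor in the BDE-47 column and 0.0759 times in the vehicle column. Its locus, chromosome 10:108353696-108659028, is the longest among the members at 305 kb.

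Mlst8 has a pair of loci with the same bounds, chromosome 10:13652758-13661987, and they differ in direction. The one chosen by its level is merged with Pgp, a phosphatase gene that is its neighbour, and was at 181 FPKM in the BDE-47 column and 352 FPKM in the vehicle column, a difference of -0.96. The locus that names Mlst8 alone was at 7.57 FPKM in the BDE-47 column and 4.69 FPKM in the vehicle column, a difference of 0.59. The value of the merged locus belongs to neither gene alone. Along chromosome 10 the locus numbers run from one end to the other and then start again. Within 1000000 bases of Mlst8 the first run holds 24 singly named genes, of which 23 are on the plus strand in RefSeq (GRCr8). The second run holds 22, of which 21 are on the minus strand. The merged locus is in the first run and Pgp is on the plus strand. The locus of Mlst8 alone is in the second run and Mlst8 is on the minus strand. The difference of this second locus was between -0.086 and 0.42 under the other scalings, negative in 1 of the 4.

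Rheb, the GTPase that activates mTORC1, had the largest difference of the members. It was at 50.6 FPKM in the BDE-47 column and 13.3 FPKM in the vehicle column, a difference of 1.85 and a ratio of 3.81. It stood above 80.7% of all names in the BDE-47 column and above 58.8% in the vehicle column, and its difference was larger than those of 89.7% of the names. The difference was past 2-fold under every alternative setting, between 1.10 and 1.93. Rheb lies on chromosome 4:6843700-6889082, where no other locus of the table overlaps it.

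The genes of the TSC complex, which inhibits RHEB, were both lower in BDE-47 than in vehicle, by less than 2-fold. Tsc1, which encodes hamartin, was at 9.78 FPKM in the BDE-47 column and 13.3 FPKM in the vehicle column, a difference of -0.40. Tsc2, which encodes tuberin, the subunit that acts on RHEB, was at 7.11 FPKM in the BDE-47 column and 8.57 FPKM in the vehicle column, a difference of -0.24. Both kept a negative sign under the other settings, between -1.13 and -0.40 for Tsc1 and between -0.94 and -0.24 for Tsc2. The scalings moved every member down, and no other setting could turn the sign of these genes. The kept sign is thus no check of their direction. Tsc1 stood above 38.5% of names in the BDE-47 column and above 58.8% in the vehicle column. Tsc2 stood above 29.8% in the BDE-47 column and above 49.1% in the vehicle column, so both had a lower rank among names in BDE-47.

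In the vehicle column the levels of Rheb and Tsc1 were equal, a ratio of 1.00, whereas in the BDE-47 column Rheb was 5.17 times the level of Tsc1. The level of Rheb over that of Tsc2 was 7.11 in the BDE-47 column and 1.55 in the vehicle column. The level of Tsc1 over that of Tsc2 was 1.38 in the BDE-47 column and 1.55 in the vehicle column. Such ratios of FPKM within a column do not change if a column is multiplied by a single factor. They restate the levels given above and are no separate result. The difference of Tsc1 was larger than those of only 18.3% of all names, and that of Tsc2 than those of 23.5%. Most names thus had a larger difference than Tsc1 and Tsc2, as Rheb did.

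Tsc1 lies on chromosome 3:12570875-12619759 and Tsc2 on chromosome 10:13732121-13813560, where it starts 70133 bases past the end of the Mlst8 loci. The bounds of the Tsc2 locus are shared with Pkd1, the polycystin gene next to it, which is in the other run of locus numbers and was at 3.43 FPKM in the BDE-47 column and 1.79 FPKM in the vehicle column. Its difference of 0.67 is opposite in sign to that of Tsc2.

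The sequence before the start of Rheb is set beside those of Tsc1 and Tsc2, whose values lay in the other direction, and of Mtor, whose level was similar in both columns. Each is the 250 bases before the annotated start in RefSeq on GRCr8, written 5′ to 3′ on the strand of the gene, with matches to the motifs searched in capitals. Rheb is on the plus strand at chr4:11013133-11013382, Tsc1 on the plus strand at chr3:32367447-32367696, Tsc2 on the minus strand at chr10:14160240-14160489 and Mtor on the plus strand at chr5:164167735-164167984.
Rheb: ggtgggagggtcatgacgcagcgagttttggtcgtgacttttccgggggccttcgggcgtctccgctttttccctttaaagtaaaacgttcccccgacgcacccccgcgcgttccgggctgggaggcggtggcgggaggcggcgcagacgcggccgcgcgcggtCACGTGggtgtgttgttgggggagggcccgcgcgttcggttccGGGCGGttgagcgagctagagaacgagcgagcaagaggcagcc
Tsc1: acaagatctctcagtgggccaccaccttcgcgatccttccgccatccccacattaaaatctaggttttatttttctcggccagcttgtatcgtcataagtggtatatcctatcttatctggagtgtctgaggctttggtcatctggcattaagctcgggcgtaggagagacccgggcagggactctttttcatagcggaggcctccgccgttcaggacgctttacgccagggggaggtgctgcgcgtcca
Tsc2: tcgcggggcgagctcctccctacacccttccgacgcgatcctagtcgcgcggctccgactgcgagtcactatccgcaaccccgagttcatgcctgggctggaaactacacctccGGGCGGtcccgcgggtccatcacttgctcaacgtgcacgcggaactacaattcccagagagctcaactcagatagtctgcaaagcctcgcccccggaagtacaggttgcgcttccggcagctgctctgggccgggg
Mtor: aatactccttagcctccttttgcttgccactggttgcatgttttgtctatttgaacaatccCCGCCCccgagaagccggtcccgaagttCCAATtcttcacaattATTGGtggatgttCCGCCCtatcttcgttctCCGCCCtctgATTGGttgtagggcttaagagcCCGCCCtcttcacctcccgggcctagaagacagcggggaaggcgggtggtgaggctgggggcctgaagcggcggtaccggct
The motifs were the E-box CACGTG, the GC box GGGCGG, the CCAAT box CCAAT, the cAMP response element TGACGTCA and the TATA box TATAAA, read on both strands, and no motif contains another. Windows were at hand for 7 of the 10 symbols, but not for Rptor, Deptor or Eif4ebp1. Eif4ebp1 was the other member called higher, so whether it shares motifs with Rheb could not be seen. The E-box was found in the window of Rheb, where it begins 86 bases before the start, and in no other of the 7, and it occurs in 5.59% of all 33469 windows. The GC box was found in those of Rheb, Mtor, Tsc2 and Rictor, with 4 copies each in Mtor and Rictor, against 30.5% of all windows. The CCAAT box was found in those of Mtor, with 3 copies, and Mlst8, against 34.0% of all windows. Neither the cAMP response element (1.59% of windows) nor the TATA box (12.9%) was found in any of the 7. The Rheb window was rich in CpG, with 34 CpG pairs and a GC content of 68%, against medians of 5 pairs and 51.2% over all windows, and those of Tsc1, Tsc2 and Mtor had 15, 25 and 14 pairs. The window of Rictor, whose expression is not analysed here, had more than that of Rheb, with 39 pairs and 80.4%. These matches describe the letters and say nothing of which factors bind there.

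Among the effectors, Eif4ebp1, which encodes 4E-BP1, the repressor that holds the cap-binding protein eIF4E, was at 11.4 FPKM in the BDE-47 column and 2.73 FPKM in the vehicle column. The difference was 1.73, and the ratio of 4.17 was the highest of the members. It stood above 43.4% of all names in the BDE-47 column and above 24.8% in the vehicle column. Under the other settings the difference lay between 1.07 and 2.06, past 2-fold in each. Eif4ebp1 lies on chromosome 16:68580161-68593651, where no other locus overlaps it.

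Rps6kb1, which encodes the S6 kinase that phosphorylates ribosomal protein S6, was at 12.5 FPKM in the BDE-47 column and 5.78 FPKM in the vehicle column. The difference of 0.99 was just under 2-fold on the log2(FPKM + 1) scale. The authors' deposited table gives a log2 ratio of 1.11, and with pseudocounts of 0.1 and 0.01 the differences of 1.10 and 1.11 were past 2-fold, which made 3 members higher. Under these 3 settings the share of all names that were higher was 35.6%, 35.0% and 35.4%. The difference was positive under all settings, between 0.29 and 1.11. Rps6kb1 shares its bounds, chromosome 10:76210976-76292178, with 4 other loci. One of them also names Rps6kb1 and was low, at 0.959 FPKM in the BDE-47 column and 0.818 FPKM in the vehicle column. It is in the second run of locus numbers, with Tubd1, a tubulin gene on the plus strand in RefSeq, while Rps6kb1 is on the minus strand. The chosen locus is in the first run, where all 7 singly named genes within 1000000 bases are on the minus strand, against 1 of 4 in the second run. The runs and the strands are thus paired the other way round here than near Mlst8, so a run stands for a strand of RefSeq only within a stretch of the chromosome. Tubd1 itself was at 8.00 FPKM in the BDE-47 column and 10.1 FPKM in the vehicle column.

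Relative to the kinase gene, both substrate genes had higher levels in BDE-47 than in vehicle. The difference of Mtor was larger than those of 38.9% of all names, so most names also had a larger difference than Mtor. The level of Eif4ebp1 was 0.376 times that of Mtor in the BDE-47 column and 0.102 times in the vehicle column. The level of Rps6kb1 was 0.412 times that of Mtor in the BDE-47 column and 0.216 times in the vehicle column. The level of Rheb was 1.67 times that of Mtor in the BDE-47 column and 0.497 times in the vehicle column. Leaving aside the merged locus, Rheb was the most abundant member in the BDE-47 column and Mtor in the vehicle column.

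**Figure D2:**
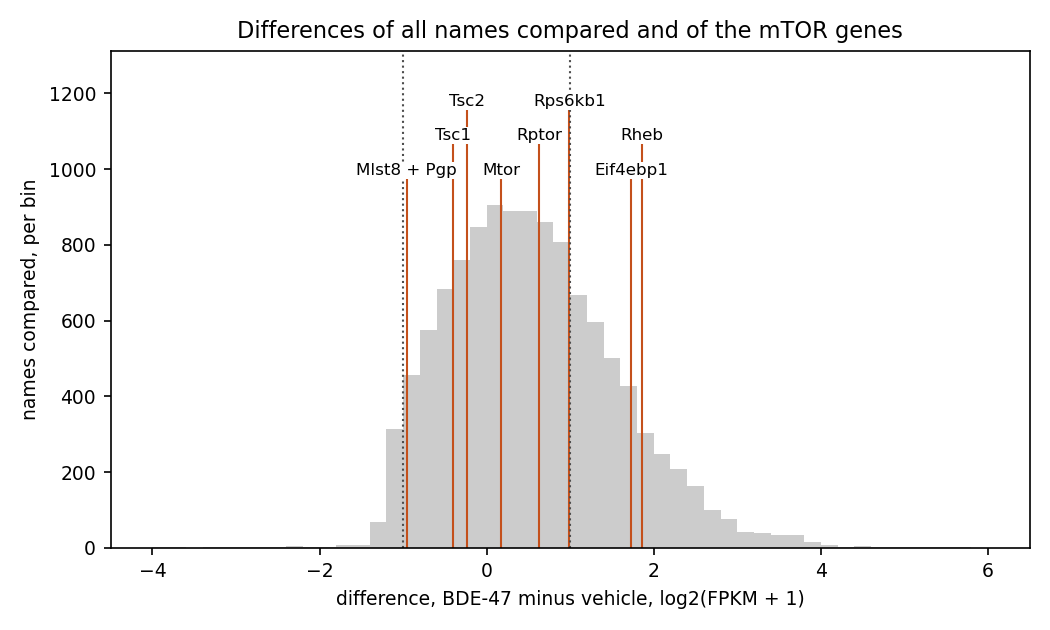
Number of gene names per bin of 0.2 units (grey bars) against the difference in log2(FPKM + 1), BDE-47 minus vehicle, for the 11567 names compared, with each mTOR gene as a vertical line and 2-fold as dotted lines; names beyond the axis range are in its end bins. Rheb (1.85) and Eif4ebp1 (1.73) lie past the upper dotted line, and Rps6kb1 (0.99) and the merged Mlst8 locus (-0.96) lie just within the dotted lines.

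The differences of all names were not centred on 0, so each member's sign depends in part on how the columns are scaled. Scaling by the median of ratios removed a shift of 0.52 log2 units when computed over the names compared and of 0.79 over all loci. With the first of these 19.3% of the names were higher and 14.5% lower, and with the second 14.9% were higher and 21.7% lower. After quantile normalization 19.6% were higher and 9.60% lower. With column totals taken without mitochondrial loci and the top 10 loci by level, 25.4% were higher and 7.10% lower. In each of these 4 scalings Rheb and Eif4ebp1 remained the members past 2-fold higher. Over all alternative settings 6 of the 8 members kept their sign, Rptor, Rheb, Rps6kb1 and Eif4ebp1 as positive and Tsc1 and Tsc2 as negative. For Tsc1 and Tsc2 this was no check, since every scaling moved the members down and no other setting could turn their sign. The 2 whose sign changed were Mtor, by scaling, and Mlst8, by the choice of locus.

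**Figure D3:**
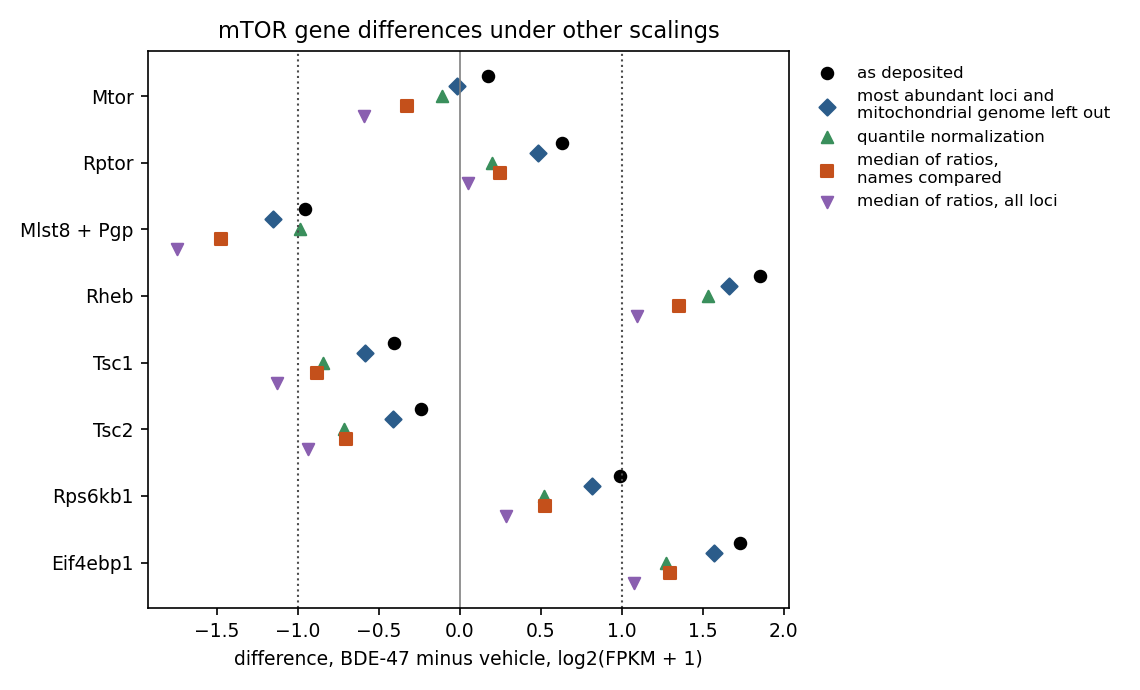
Difference in log2(FPKM + 1), BDE-47 minus vehicle, of each mTOR gene with the values as deposited and under 4 other scalings, with dotted lines at 2-fold. Every scaling moves all 8 genes to the left, Rheb (1.10 to 1.66) and Eif4ebp1 (1.07 to 1.57) stay beyond the upper dotted line, and Mtor (-0.59 to -0.017) crosses 0.

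The genes around these members were described from lists of 89 pathway genes, of which 80 were in the table and 75 reached a mean of 1 FPKM. Of the 75, 20 (26.7%) were higher in the BDE-47 column and none was lower, near the 30.1% of all names that were higher. Their median difference was 0.64, against 0.45 over all names. After median-of-ratios scaling over the names compared, 13 were higher and 5 lower, against 19.3% and 14.5% of all names. Over all loci 8 were higher and 8 lower, against 14.9% and 21.7% of all names. The 19 genes named here by the fixed rule had positive differences in all 4 scalings. They were picked for differences past 2-fold, and median-of-ratios scaling removed shifts of 0.52 and 0.79. Their positive signs thus follow largely from that choice and are no separate support. Of the 19, 8 were past 2-fold in all 4: Rraga, Pik3r1, Akt1, Prkaa2, Prkag1, Ddit4, Tfe3 and Sgk1.

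Of 6 genes of other subunits and of assembly factors, 1 (16.7%, against 30.1% of all names) was higher, with a median of 0.35. In 3 of the 4 scalings the median was negative, at -0.22 to -0.024, and none was higher. The median of all names in these 3 scalings was -0.24 to 0.11. The gene higher with the values as deposited was Akt1s1, which encodes PRAS40, an inhibitor that binds raptor. Akt1s1 was at 20.4 FPKM in the BDE-47 column and 8.22 FPKM in the vehicle column. Its difference of 1.21 was 0.48 to 1.03 under the other scalings.

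The lysosomal arm, through which amino acids bring mTORC1 to RHEB, had the highest median of the lists, 0.90. Of its 12 genes 4 were higher (33.3%), near the 30.1% of all names. Rraga, one of the Rag GTPases that dock mTORC1 on the lysosome, was at 27.7 FPKM in the BDE-47 column and 7.11 FPKM in the vehicle column. The other 3 encode subunits of Ragulator, the lysosomal anchor of the Rag GTPases. Lamtor1 was at 48.8 FPKM in BDE-47 and 14.5 FPKM in vehicle. Lamtor5 was at 40.8 FPKM in BDE-47 and 14.5 FPKM in vehicle. Lamtor3, the smallest of these differences at 1.09, was at 17.1 FPKM in BDE-47 and 7.52 FPKM in vehicle. The list median was positive in each of the 4 scalings, at 0.22 to 0.75, against -0.24 to 0.28 for all names.

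The GATOR complexes and the amino acid sensors, which act on the Rag GTPases, had 1 of 12 genes higher (8.33%, against 30.1% of all names). The list median was 0.14. The median depends on 3 loci merged with a neighbour: over the 9 loci that name only the gene it was 0.52, above that of all names. The gene past 2-fold was Sesn1, a stress-induced inhibitor of mTORC1, at 21.4 FPKM in the BDE-47 column and 6.87 FPKM in the vehicle column. The list ran from -0.93 to 1.51. With the merged loci its median was negative in each of the 4 scalings, at -0.59 to -0.045, against -0.24 to 0.28 for all names. Of the 12 genes 5 were lower after median-of-ratios scaling over all loci, against 21.7% of all names. Over the names compared 3 were lower, against 14.5%. After quantile normalization and with the most abundant loci left out 1 was lower, against 9.60% and 7.10%.

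Of 13 genes of the insulin receptor to TSC route, 3 (23.1%, against 30.1% of all names) were higher. The list median was 0.69, and 0.0087 to 0.50 under the 4 scalings, against -0.24 to 0.28 for all names. Akt1, which encodes a kinase that phosphorylates TSC2 and so relieves RHEB, had the largest difference of any pathway gene, 2.46, at 39.9 FPKM in the BDE-47 column and 6.45 FPKM in the vehicle column. Pik3r1, a regulatory subunit of phosphoinositide 3-kinase, was at 6.82 FPKM in the BDE-47 column and 1.39 FPKM in the vehicle column. Insr, the insulin receptor gene, was at 3.01 FPKM in BDE-47 and 0.559 FPKM in vehicle. Irs1 and Irs2 stayed under a mean of 1 FPKM.

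The energy-sensing kinase AMPK and the stress-induced inhibitor DDIT4 act against mTORC1 through the TSC complex and raptor. Of 10 genes in this list 3 (30%, against 30.1% of all names) were higher, with a median of 0.40. The count higher was 3 in all 4 scalings, in which 14.9% to 25.4% of all names were higher. After median-of-ratios scaling over all loci 2 genes were lower, and over the names compared 1 gene, against 21.7% and 14.5% of all names. The list median was negative in 3 of the 4, at -0.31 to -0.022, and 0.22 in the other. The median of all names was -0.24 to 0.11 in those 3 and 0.28 in the other. Prkag1, an AMPK gamma subunit, was at 22.9 FPKM in the BDE-47 column and 4.47 FPKM in the vehicle column. Ddit4 was at 24.1 FPKM in BDE-47 and 4.82 FPKM in vehicle. Prkaa2, a catalytic subunit of AMPK, was at 3.46 FPKM in BDE-47 and 0.603 FPKM in vehicle. Stk11, which encodes the kinase LKB1 that activates AMPK and is named after its value was seen, was at 33.8 FPKM in BDE-47 and 46.5 FPKM in vehicle, within 2-fold.

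Of 9 genes of translational effectors 3 (33.3%, against 30.1% of all names) were higher, with a median of 0.43. The median turned to -0.33 and -0.069 after median-of-ratios scaling over all loci and over the names compared, each with 0 higher, and 1 was higher in the other 2 scalings. Under the 2 median-of-ratios scalings the median of all names was -0.24 and 0, and 14.9% and 19.3% of names were higher. In the other 2 scalings 19.6% and 25.4% of names were higher. Rps6kb2, the paralog of Rps6kb1, was at 5.35 FPKM in BDE-47 and 1.56 FPKM in vehicle. Eif4ebp2, the paralog of Eif4ebp1, was at 14.2 FPKM in BDE-47 and 5.82 FPKM in vehicle. Eif4a1, the helicase of the cap-binding complex, was at 146 FPKM in BDE-47 and 66.7 FPKM in vehicle. Reads shared between paralogs can make such values uncertain, which was not examined. Rps6, a ribosomal protein gene that every cell uses, was listed at 0 in both columns, which can be a failed estimate.

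Of 13 genes of autophagy and other targets 5 (38.5%, against 30.1% of all names) were higher, with a median of 0.67. Under the 4 scalings 2 to 5 were higher and the median was 0.090 to 0.49. Of all names 14.9% to 25.4% were higher in these scalings, with medians of -0.24 to 0.28. Sgk1, a kinase activated by mTORC2, was at 11.8 FPKM in the BDE-47 column and 1.82 FPKM in the vehicle column. Tfe3, a regulator of lysosomal genes that mTORC1 holds in the cytoplasm, was at 6.63 FPKM in BDE-47 and 1.36 FPKM in vehicle. Srebf1, a regulator of lipid synthesis, was at 9.65 FPKM in BDE-47 and 2.77 FPKM in vehicle. Atg101, a subunit of the autophagy-initiating ULK complex, was at 12.8 FPKM in BDE-47 and 4.26 FPKM in vehicle. The fifth, named after its value was seen, was Mitf, a relative of Tfe3, at 2.03 FPKM in BDE-47 and 0.259 FPKM in vehicle.

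**Figure D4:**
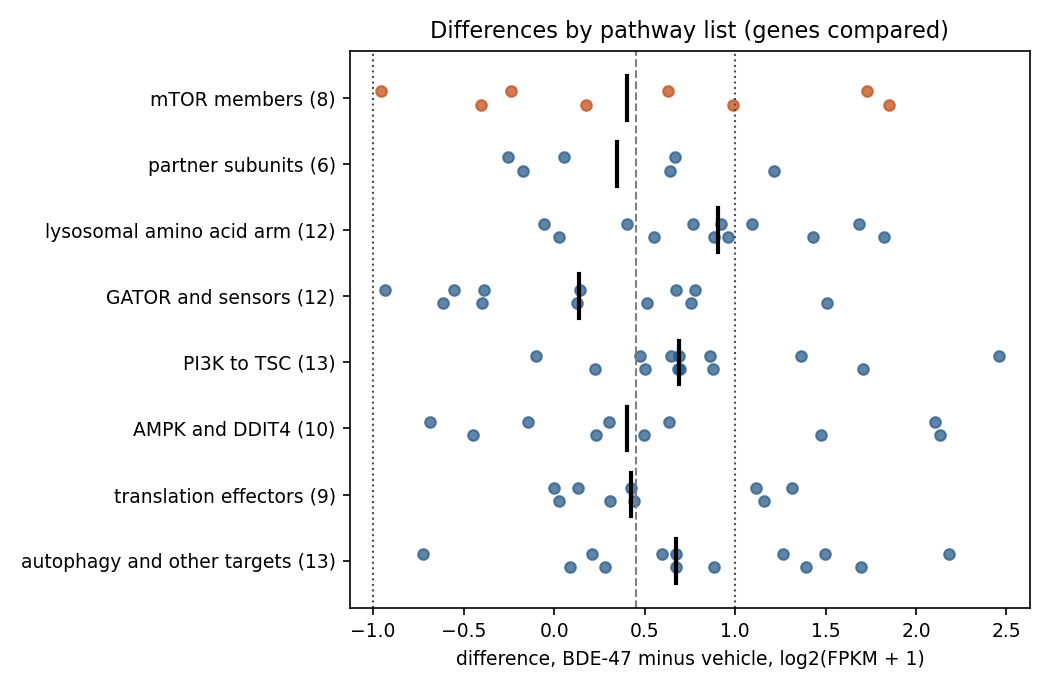
Difference in log2(FPKM + 1), BDE-47 minus vehicle, of the mTOR members (orange) and of the genes of 7 pathway lists (blue), with the number of genes in brackets, the list median as a black bar, the median of all names (0.45) as a dashed line and 2-fold as dotted lines. The list medians run from 0.14 for GATOR and sensors (0.52 without its merged loci) to 0.90 for the lysosomal amino acid arm, and no pathway gene lies past 2-fold lower.

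Markers of several testis cell types also differed between the columns. Beside the counts that follow, 30.1% of the names compared were higher and 3.60% lower. The marker values are as deposited and were not rescaled, whereas median-of-ratios scaling removed shifts of 0.52 and 0.79 log2 units. In bulk tissue, fewer cells of a type and less RNA per cell cannot be told apart. Spermatid markers summed to 30207 FPKM in BDE-47 and 76309 FPKM in vehicle, with 5 of 7 lower. Leydig cell markers summed to 1327 FPKM in BDE-47 and 121 FPKM in vehicle, with 6 of 6 higher, and without Insl3, whose locus is merged with Jak3, to 423 FPKM in BDE-47 and 50.0 FPKM in vehicle. Macrophage markers summed to 399 FPKM in BDE-47 and 23.1 FPKM in vehicle, with 6 of 7 higher. Sertoli cell markers summed to 1809 FPKM in BDE-47 and 324 FPKM in vehicle, with 4 of 7 higher. Clu held most of the Sertoli sum, at 1520 FPKM in BDE-47 and 267 FPKM in vehicle. The Sertoli markers Amh, Inhbb and Rhox5 were within 2-fold, with differences of 0.047, 0.38 and -0.25. Of 5 markers each, 2 peritubular and 2 endothelial ones were higher. The peritubular sum was 239 FPKM in BDE-47 and 86.1 FPKM in vehicle, and the endothelial sum 144 FPKM in BDE-47 and 90.3 FPKM in vehicle. Most of the endothelial sum was the locus that merges Tek with Eqtn, a sperm gene, and without it the other 4 markers summed to 10.5 FPKM in BDE-47 and 2.24 FPKM in vehicle. Spermatocyte markers, with 2 of 5 higher and 1 lower, summed to 903 FPKM in BDE-47 and 575 FPKM in vehicle. Sycp3 held most of this sum, at 699 FPKM in BDE-47 and 357 FPKM in vehicle. Sycp1 and Tex12 differed by 1.15 and 1.23, and Piwil1 and Ccna1 by -0.77 and -1.05. The 4 spermatogonial markers found, with 1 higher, summed to 98.9 FPKM in BDE-47 and 64.8 FPKM in vehicle. Uchl1 held most of this sum, at 83.9 FPKM in BDE-47 and 58.9 FPKM in vehicle. Kit, Zbtb16 and Gfra1 differed by 2.07, 0.33 and -0.48. Liver markers were included because the extraction text speaks of liver, and 3 of 6 were higher. Tf, which Sertoli cells also make, held most of their sum of 233 FPKM in BDE-47 and 109 FPKM in vehicle, while Alb, the albumin gene, was at 0.633 FPKM in BDE-47 and 0.920 FPKM in vehicle. No marker found was at 0 in either column. The part of these cell types in the differences of the mTOR genes was not tested.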

How the data were processed

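TopHat2, Cuffdiff 2.1.1 and rat build rn5 are named by the submitters' processing notes. Not given in the sources used here are the gene annotation, the strand setting, how multiply matching reads were handled and how libraries were combined. The authors deposited log2 FPKM, with 1 value per group and locus, and a log2 ratio that equals the BDE-47 minus the control value within 0.01. The floor of -10 was read as listed at 0.

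Each symbol was matched to the comma-separated names of a locus and the locus with the highest mean FPKM was kept, with synonyms from a RefSeq gene table of GRCr8. The names compared are 1 locus for each content of the name field with a mean of at least 1 FPKM. Members were counted at any level, and all 8 passed that mean. Differences used a pseudocount of 1 and a size of 2-fold. With 1 value per group no test was run. Named pathway genes are, in each list, the largest differences past 2-fold, at most 4, or the 2 most abundant genes where none is past it. The members and lists were chosen with earlier results of these data known. Alternatives were pseudocounts, scalings, the choice of locus, the size of 1.5-fold and the filter on low values. Scaling over the names compared was added after seeing the data. Computations used Python 3.11.15, pandas 2.3.3 and numpy 2.4.6.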

Additional observations from a re-analysis of the deposited data

Results flagged for a closer look

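Loci without a gene name, outside the comparisons above, shared the bounds of Rps6kb1 on chromosome 10 and had more signal in the BDE-47 column than in the vehicle column. One was at 13.4 FPKM in the BDE-47 column and 5.58 FPKM in the vehicle column, a difference of 1.13 on the log2(FPKM + 1) scale. The other was at 2.48 FPKM in the BDE-47 column and 0.633 FPKM in the vehicle column, a difference of 1.09. Both are in the second run of locus numbers, as is Tubd1, which was lower in the BDE-47 column at 8.00 FPKM, against 10.1 FPKM in the vehicle column. The other scalings gave 0.42 to 0.95 for the first and 0.66 to 0.98 for the second, under 2-fold in each. The difference between the columns was not tested, since the table holds 1 value per group.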

How the results depend on the processing

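No paired analysis was possible because the table holds 1 value per group and no values per library; for the same reason no library could be left out. The count of members higher, 2, was 4 with a size of 1.5-fold, at which 45.1% of all names were higher. The count of members lower, 0, was 2 after median-of-ratios scaling over all loci (the merged Mlst8 locus and Tsc1), 1 after that scaling over the names compared, 1 with the most abundant loci left out (the merged Mlst8 locus in both), and 1 with a size of 1.5-fold. The median difference of the members, 0.40, reversed to -0.27 after median-of-ratios scaling over all loci and to -0.040 over the names compared. The median of all names, 0.45 as deposited, moved to -0.24 and 0 under these settings. The member median was 0.046 after quantile normalization and 0.23 with the most abundant loci left out, against 0.11 and 0.28 for all names. With pseudocounts of 0.1 and 0.01 it was 0.50 and 0.52, against 0.51 and 0.52 for all names. With the deposited log2 ratio both medians were 0.52. The member median was 0.61 with loci that name only the symbol, against 0.45 for all names. With a mean of at least 5 FPKM it was 0.17, against 0.33 for all names. The count of pathway genes higher, 20, was 8 after median-of-ratios scaling over all loci, 13 over the names compared and 40 of 75 (against the 45.1% of all names) with a size of 1.5-fold. The count lower, 0, was 8, 5 and 4 under these settings, and 1 each after quantile normalization and with the most abundant loci left out. The difference of Mtor, 0.17, reversed to -0.59 and -0.33 after median-of-ratios scaling over all loci and over the names compared, to -0.11 after quantile normalization and to -0.017 with the most abundant loci left out. That of Mlst8, -0.96, reversed to 0.59 with the locus that names only Mlst8. Median-of-ratios scaling and leaving out the most abundant loci each multiply a column by a single factor, which here moves each difference down by construction. The pseudocount, size, filter and locus settings change the measure, the cutoff, or the genes or loci counted. The cause of the shift after quantile normalization was not tested. Depth is unknown, so the counting error of low members such as Rptor cannot be given.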
